A study of Mus musculus with 7 samples.

Results

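The Hedgehog ligands, receptors and Gli factors examined here are 8 genes of the mouse: the ligand genes Shh and Ihh, the receptor gene Ptch1, the ligand-binding inhibitor gene Hhip, the transducer gene Smo and the transcription factor genes Gli1, Gli2 and Gli3. They were picked by symbol from the 38579 gene entries of an RNA-seq table, and each symbol was held by 1 entry. Of the 8, 6 reached 1 FPKM (fragments scaled to transcript length and to library size) in 2 or more of 7 libraries and were tested among 14418 such genes. Shh and Ihh stayed under that level in every library and are described without a test.

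Hedgehog ligands are lipid-modified secreted proteins that bind the receptor Ptch1, which otherwise holds Smo inactive. Active Smo, at the primary cilium, keeps Gli2 and Gli3 from being cut into repressors and lets them act as activators, and transcription of Gli1, Ptch1 and Hhip is a common readout of the pathway in mammals. In the mouse embryo, mammary bud formation is known to need repression of Hedgehog targets by Gli3.

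The cells were primary mammary cells of CD1 mouse embryos at E17.5, sorted by flow cytometry in a pair of strategies, each with a fraction enriched for fetal mammary stem cells (fMaSC) and a stromal fraction. Sox10+EpCAM+ fMaSC (2 libraries) carried the Sox10-Venus reporter and surface EpCAM, an epithelial adhesion molecule, and EpCAM-negative stroma (1 library, so no SD) lacked EpCAM and, by its title, Sox10 and lineage markers. The 2 libraries each of CD24+CD49f+ fMaSC and of CD24low stroma came from lineage-negative cells. The former were sorted for the glycoprotein CD24 and the integrin CD49f, and the latter for low CD24, with no CD49f in their labels. The column names of both Sox10+EpCAM+ fMaSC libraries also give lineage-negative cells, although the title of replicate 1 does not. All groups share strain and age, the labels name no treatment for them, and they give neither the number of embryos behind a library nor any pairing of libraries, so that p-values measure the spread between these libraries. The values hold FPKM without counts, and an estimate from the lowest values put about 25300000 to 36700000 fragments behind each library.

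The fractions were checked against markers of epithelium and fibroblasts. Epcam is 1 of the epithelial markers, and its protein was itself used for the Sox10 and EpCAM sort. Its 219 and 230 FPKM in the Sox10+EpCAM+ fMaSC libraries are therefore not an independent check of that sort. Summed FPKM of 7 epithelial markers was 735 and 869 in the Sox10+EpCAM+ fMaSC libraries and 6.96 in EpCAM-negative stroma, and 528 and 338 in CD24+CD49f+ fMaSC against 3.33 and 2.62 in CD24low stroma. Summed FPKM of 7 fibroblast markers was 40.9 and 68.9 in Sox10+EpCAM+ fMaSC and 5884 in EpCAM-negative stroma. In the other sort it was 1906 and 3084 in CD24+CD49f+ fMaSC and 6862 and 6159 in CD24low stroma. Fibroblast markers therefore stood far higher in the CD24+CD49f+ fMaSC libraries than in the Sox10+EpCAM+ ones, with 7 of 7 called lower in Sox10+EpCAM+ fMaSC than in CD24+CD49f+ fMaSC and 0 of the 7 at 0 in any library. The 2 CD24+CD49f+ fMaSC libraries also stood apart from each other for most Hedgehog genes, and values without each of them are given beside the results.

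The 3 Gli genes share a DNA-binding region of zinc fingers. The stretch of 60 coding bases below is shown because the Gli balance described later rests on telling these paralogs apart, and capitals mark the 9 positions that the 3 genes do not all share (GENCODE vM21 transcripts on GRCm38, coding strand, positions counted from the first coding base). Gli1 lies on chromosome 10 (bases 1111 to 1170 of its coding sequence), Gli2 on chromosome 1 (1648 to 1707) and Gli3 on chromosome 13 (1837 to 1896).
Gli1: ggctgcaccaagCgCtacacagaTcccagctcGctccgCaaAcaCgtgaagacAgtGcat
Gli2: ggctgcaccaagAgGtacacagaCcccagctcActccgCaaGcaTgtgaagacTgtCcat
Gli3: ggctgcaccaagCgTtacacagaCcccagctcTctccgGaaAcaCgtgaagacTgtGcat
Gli2 differs from Gli1 at 8 of these positions and Gli3 from Gli1 at 5. The longest run of identical bases was 23 between Gli1 and Gli2 transcripts, 14 between Gli1 and Gli3 and 25 between Gli2 and Gli3, all shorter than the reads of 100 bases. Shh and Ihh shared a run of at most 17 bases.

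The ligand genes were close to undetected in all 4 groups. Shh (ENSMUSG00000002633, GRCm38 chromosome 5, 28456815 to 28467101, minus strand), which encodes Sonic hedgehog, was listed at 0 in both Sox10+EpCAM+ fMaSC libraries and at 0.0284 FPKM in EpCAM-negative stroma. In the other sort it stood at 0.0105 and 0.0848 FPKM in CD24+CD49f+ fMaSC, against 0.0131 and 0 FPKM in CD24low stroma. The highest of these values corresponds to an estimated 6.3 fragments, so differences between groups were not detectable at this depth. Ihh (ENSMUSG00000006538, chromosome 1, 74945319 to 74951651, minus strand), which encodes Indian hedgehog, stood at 0.0881 and 0.0268 FPKM in both Sox10+EpCAM+ fMaSC libraries and at 0.0946 FPKM in EpCAM-negative stroma. Its level was 0.0117 and 0.125 FPKM in CD24+CD49f+ fMaSC and 0.131 and 0.0527 FPKM in CD24low stroma. The groups overlapped, and all 7 values amount to an estimated 1.0 to 9.0 fragments.

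The remaining mammalian ligand gene, Dhh (Desert hedgehog, a ligand known from Schwann cells), was not among the 8 and reached the highest single FPKM value of the 3 ligand genes. Dhh stood at 5.03 and 3.37 FPKM in CD24+CD49f+ fMaSC and at 0.302 and 0.0911 FPKM in CD24low stroma, with 0.213 and 0.376 FPKM in both Sox10+EpCAM+ fMaSC libraries and 0.0653 FPKM in EpCAM-negative stroma. Both CD24+CD49f+ fMaSC libraries lay above all others. Dhh passed the filter on low values through those 2 libraries alone, so its values are a description and its calls are not read as support. The summed FPKM of 6 Schwann and glial markers moved with it, at 177 and 106 in CD24+CD49f+ fMaSC and 9.13 and 9.91 in CD24low stroma, against 15.9 and 20.5 in Sox10+EpCAM+ fMaSC and 2.68 in EpCAM-negative stroma. Of these markers 1 was at 0, Cdh19 in the EpCAM-negative library, and their part in the Dhh level was not tested.

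Among the receptors and inhibitors, Ptch1 was measured in every group. In the main fit of all 7 libraries, neither Ptch1 nor Hhip passed the test in any of the 6 comparisons. Ptch1 (ENSMUSG00000021466, chromosome 13, 63511533 to 63565520, minus strand), which encodes the ligand receptor and is itself a target gene, stood at 1.59 and 1.80 FPKM in both Sox10+EpCAM+ fMaSC libraries and at 2.65 FPKM in EpCAM-negative stroma. It stood at 1.60 and 7.06 FPKM in CD24+CD49f+ fMaSC and at 3.53 and 2.59 FPKM in CD24low stroma, so that these groups overlapped and the spread inside CD24+CD49f+ fMaSC took in 4 of the 5 other libraries. In the order of group means CD24+CD49f+ fMaSC (4.33 ± 3.86 FPKM, SD, n = 2) came before CD24low stroma (3.06 ± 0.664, SD, n = 2), EpCAM-negative stroma and Sox10+EpCAM+ fMaSC (1.69 ± 0.148, SD, n = 2), and of these neighbours only Sox10+EpCAM+ fMaSC and EpCAM-negative stroma lay further apart than the SD. The Ptch1 log2 fold was −0.44 (95% interval −1.94 to 1.06, limma adjusted p = 0.619) in Sox10+EpCAM+ fMaSC relative to EpCAM-negative stroma and 0.18 (−1.04 to 1.41, adjusted p = 0.855) for CD24+CD49f+ fMaSC against CD24low stroma. Hhip (ENSMUSG00000064325, chromosome 8, 79966115 to 80058006, minus strand) encodes a membrane protein that binds Hedgehog ligands and limits their range. It stood at 0.0605 and 0.0622 FPKM in Sox10+EpCAM+ fMaSC, at 1.56 FPKM in EpCAM-negative stroma, at 0.925 and 3.55 FPKM in CD24+CD49f+ fMaSC and at 2.51 and 2.77 FPKM in CD24low stroma. Both Sox10+EpCAM+ fMaSC libraries thus lay below the 5 others, with an estimated 15.9 and 18.1 fragments. Group means ran from CD24low stroma (2.64 ± 0.183 FPKM, SD, n = 2) through CD24+CD49f+ fMaSC (2.24 ± 1.86) and EpCAM-negative stroma to Sox10+EpCAM+ fMaSC (0.0613 ± 0.00121), and the first 3 did not differ beyond the SD of CD24+CD49f+ fMaSC. The log2 fold of Hhip was −1.27 (SE 0.47, limma adjusted p = 0.0994) against EpCAM-negative stroma and −1.48 (SE 0.39, adjusted p = 0.0689) against CD24+CD49f+ fMaSC. Without either CD24+CD49f+ fMaSC library the first fold stayed at −1.27. Neither library is in that comparison, and only the variance shared by all groups changes. The second fold was −2.10 without CD24+CD49f+ fMaSC replicate 1 and −0.86 without replicate 2. Whether these Hhip folds passed the threshold depended on whether both CD24+CD49f+ fMaSC libraries were in the fit. With a pseudocount of 0.1 FPKM both Hhip folds passed the threshold (log2 folds −3.37 and −3.58, limma adjusted p = 0.0194 and 0.0154).

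**Figure D1:**
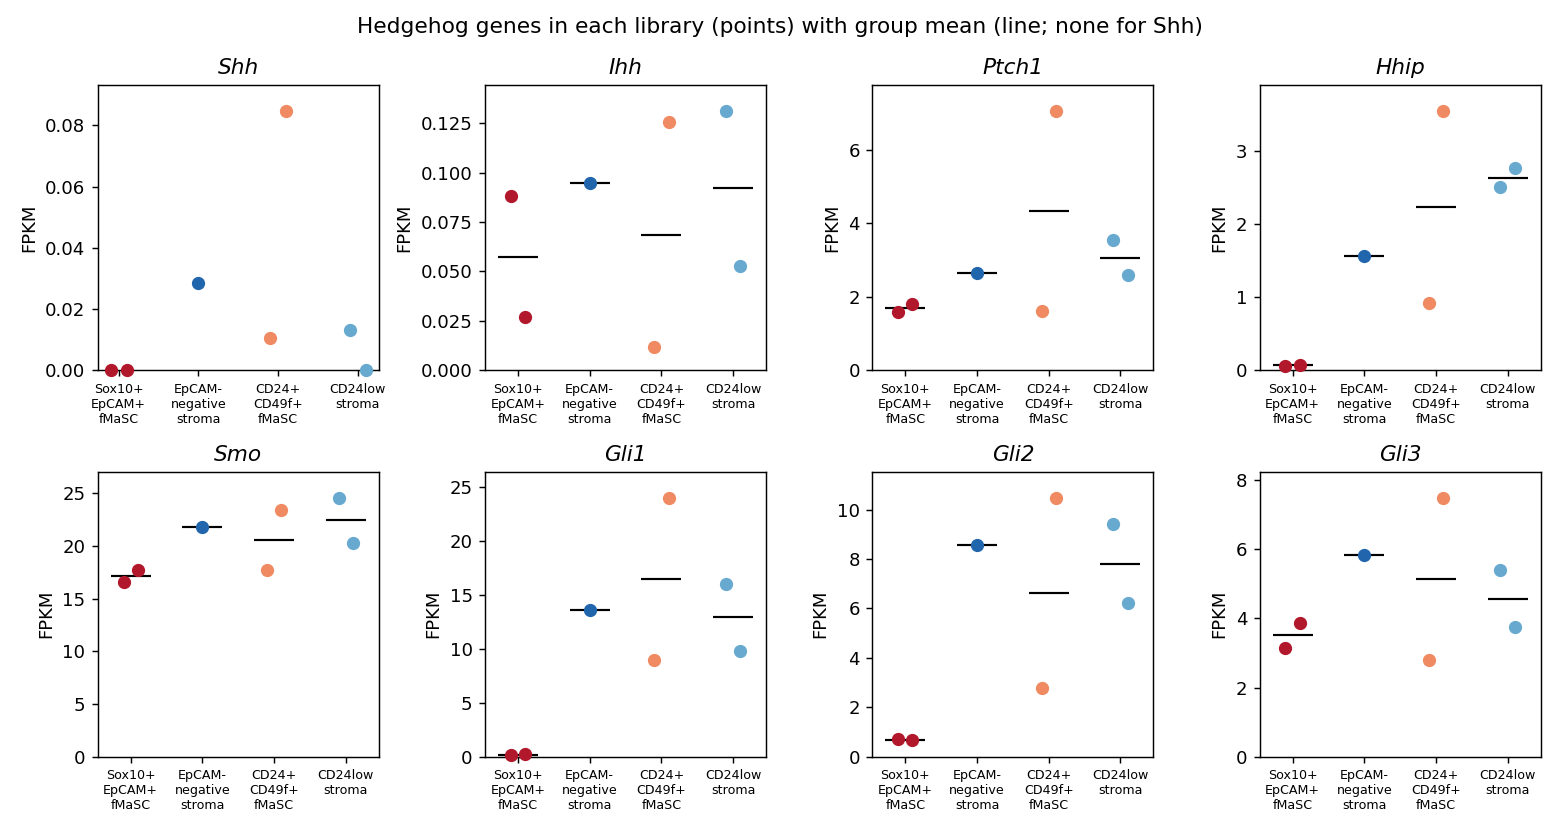
FPKM (vertical axis, linear, its own range in each panel) of the 8 Hedgehog genes in the 4 groups (horizontal axis), with a point for each of the 7 libraries and, except for Shh, a line for the group mean. Gli1, Gli2 and Hhip are lowest in the 2 Sox10+EpCAM+ fMaSC libraries, Smo lies between 16.6 and 24.6 FPKM in every library, and the Shh and Ihh panels stay under 0.14 FPKM.

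Smo (ENSMUSG00000001761, chromosome 6, 29735694 to 29761365, plus strand), the membrane protein that passes the signal to the Gli factors, had the highest FPKM of the members, a unit scaled by length, in 6 of the 7 libraries. CD24+CD49f+ fMaSC replicate 2 was the exception, with Gli1 above Smo. Its FPKM was 16.6 and 17.7 in Sox10+EpCAM+ fMaSC and 21.8 in EpCAM-negative stroma, and 17.7 and 23.4 in CD24+CD49f+ fMaSC against 24.6 and 20.3 in CD24low stroma. The log2 fold was −0.33 (95% interval −0.94 to 0.29, limma adjusted p = 0.362) in the Sox10 and EpCAM sort and −0.13 (−0.63 to 0.37, adjusted p = 0.740) in the CD24 and CD49f sort. CD24+CD49f+ fMaSC and CD24low stroma overlapped, and the group means of CD24low stroma (22.4 ± 3.05 FPKM), EpCAM-negative stroma and CD24+CD49f+ fMaSC (20.5 ± 4.02) lay within those SDs, with Sox10+EpCAM+ fMaSC last (17.2 ± 0.823, SD, n = 2 in these groups).

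Gli1 (ENSMUSG00000025407, chromosome 10, 127329889 to 127341589, minus strand), an activator that is itself transcribed in response to the pathway, had the largest fold of the 6 tested genes in both comparisons that involve Sox10+EpCAM+ fMaSC directly. It stood at 0.115 and 0.270 FPKM in Sox10+EpCAM+ fMaSC, against 13.6 FPKM in EpCAM-negative stroma. In the CD24 and CD49f sort it stood at 8.998 and 24.0 FPKM in CD24+CD49f+ fMaSC and at 16.0 and 9.83 FPKM in CD24low stroma. Both Sox10+EpCAM+ fMaSC libraries therefore lay far below the 5 others, at an estimated 13.2 and 34.4 fragments, while the CD24+CD49f+ fMaSC libraries held the lowest and the highest value of the rest. In the order of group means CD24+CD49f+ fMaSC (16.5 ± 10.6 FPKM, SD, n = 2) came before EpCAM-negative stroma, CD24low stroma (12.9 ± 4.39, SD, n = 2) and Sox10+EpCAM+ fMaSC (0.192 ± 0.110, SD, n = 2), and only the last step exceeded the spread.

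Gli1 was lower in Sox10+EpCAM+ fMaSC than in EpCAM-negative stroma by a log2 fold of −3.62 (SE 0.55, limma adjusted p = 0.00577), a call kept without any single one of the 6 libraries that could be left out (adjusted p = 0.0005043 to 0.0348). It was also lower than in CD24+CD49f+ fMaSC, by −3.73 (SE 0.45, limma adjusted p = 0.00675), and this call ended without Sox10+EpCAM+ fMaSC replicate 1 (adjusted p = 0.0642). Both calls ended when genes of low level were kept in the test (adjusted p = 0.0718 and 0.102), as did that of Gli2 described next (0.188). The fibroblast markers moved the same way in both comparisons, with summed levels of 40.9 and 68.9 FPKM in the Sox10+EpCAM+ fMaSC libraries, 5884 FPKM in EpCAM-negative stroma and 1906 and 3084 FPKM in CD24+CD49f+ fMaSC, and their part in the Gli1 and Gli2 calls was not tested. In these bulk samples fewer cells of a type and less RNA per cell cannot be told apart. CD24+CD49f+ fMaSC and CD24low stroma differed in Gli1 by a log2 fold of 0.22 (95% interval −0.89 to 1.33, adjusted p = 0.800), and EpCAM-negative and CD24low stroma by 0.11 (−1.25 to 1.46, adjusted p = 1).

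Gli2 (ENSMUSG00000048402, chromosome 1, 118834132 to 119053619, minus strand), known in mice as the main activator that transduces the signal, was likewise lowest in Sox10+EpCAM+ fMaSC. Its FPKM was 0.696 and 0.681 in Sox10+EpCAM+ fMaSC and 8.56 in EpCAM-negative stroma, and 2.79 and 10.5 in CD24+CD49f+ fMaSC against 9.40 and 6.22 in CD24low stroma. The Sox10+EpCAM+ fMaSC libraries were again below all others. In the order of means, EpCAM-negative stroma, CD24low stroma (7.81 ± 2.25 FPKM, SD, n = 2) and CD24+CD49f+ fMaSC (6.64 ± 5.44, SD, n = 2) lay within these SDs, and Sox10+EpCAM+ fMaSC (0.689 ± 0.0107, SD, n = 2) came last. Gli2 was lower in Sox10+EpCAM+ fMaSC than in EpCAM-negative stroma by a log2 fold of −2.50 (SE 0.62, limma adjusted p = 0.0315). That call ended without Sox10+EpCAM+ fMaSC replicate 1 (adjusted p = 0.117) or replicate 2 (0.107) and without CD24low stroma replicate 1 (0.0609) or replicate 2 (0.0604). Against CD24+CD49f+ fMaSC the Gli2 fold of −1.97 (SE 0.51, adjusted p = 0.0665) missed the threshold, and it passed without CD24+CD49f+ fMaSC replicate 1 (−2.77, adjusted p = 0.00208).

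Gli3 (ENSMUSG00000021318, chromosome 13, 15463235 to 15730026, plus strand), the factor known chiefly as a repressor, was measured in all libraries with much smaller differences. It stood at 3.15 and 3.87 FPKM in both Sox10+EpCAM+ fMaSC libraries and at 5.83 FPKM in EpCAM-negative stroma, and at 2.81 and 7.50 FPKM in CD24+CD49f+ fMaSC against 5.39 and 3.75 FPKM in CD24low stroma. Sox10+EpCAM+ fMaSC overlapped with CD24low stroma, and the CD24+CD49f+ fMaSC values lay on either side of every other library. The means of EpCAM-negative stroma, CD24+CD49f+ fMaSC (5.15 ± 3.32 FPKM), CD24low stroma (4.57 ± 1.16) and Sox10+EpCAM+ fMaSC (3.51 ± 0.507, SD, n = 2 in these groups) did not differ between neighbours beyond their SDs. The Gli3 fold was −0.60 (95% interval −1.77 to 0.57, limma adjusted p = 0.376) in the Sox10 and EpCAM sort and 0.05 (−0.91 to 1.00, adjusted p = 0.957) in the CD24 and CD49f sort. These intervals do not show that Gli3 was equal in the groups compared.

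The balance of the Gli transcripts separated Sox10+EpCAM+ fMaSC from the 3 other groups. As a share of the summed FPKM of Gli1, Gli2 and Gli3, which no scaling of a library changes, Gli3 made up 79.6% and 80.3% in the Sox10+EpCAM+ fMaSC libraries and 20.8% in EpCAM-negative stroma. Its share was 19.2% and 17.9% in CD24+CD49f+ fMaSC and 17.48% and 19.0% in CD24low stroma. Gli1 held 2.89% and 5.61% in Sox10+EpCAM+ fMaSC and 48.6% in EpCAM-negative stroma, and 61.6% and 57.2% in CD24+CD49f+ fMaSC against 52.0% and 49.6% in CD24low stroma. The CD24+CD49f+ fMaSC libraries did not overlap with CD24low stroma in the Gli1 share, where they were higher, nor in the Gli2 share, where they were lower. The FPKM levels of both genes overlapped between these groups. With 2 libraries in each group and shares that depend on each other, this order does not show a shift in balance. Gli2 made up 17.6% and 14.1% in Sox10+EpCAM+ fMaSC and 30.6% in EpCAM-negative stroma, and 19.1% and 25.0% in CD24+CD49f+ fMaSC against 30.5% and 31.4% in CD24low stroma. The summed level of the 3 genes was 3.96 and 4.82 FPKM in both Sox10+EpCAM+ fMaSC libraries and 28.03 FPKM in EpCAM-negative stroma, and 14.6 and 41.99 FPKM in CD24+CD49f+ fMaSC against 30.8 and 19.8 FPKM in CD24low stroma. The CD24+CD49f+ fMaSC libraries thus differed in total more than in balance. The shares are given as a description, with no test, and they count transcripts, not the cleaved or full-length proteins.

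**Figure D2:**
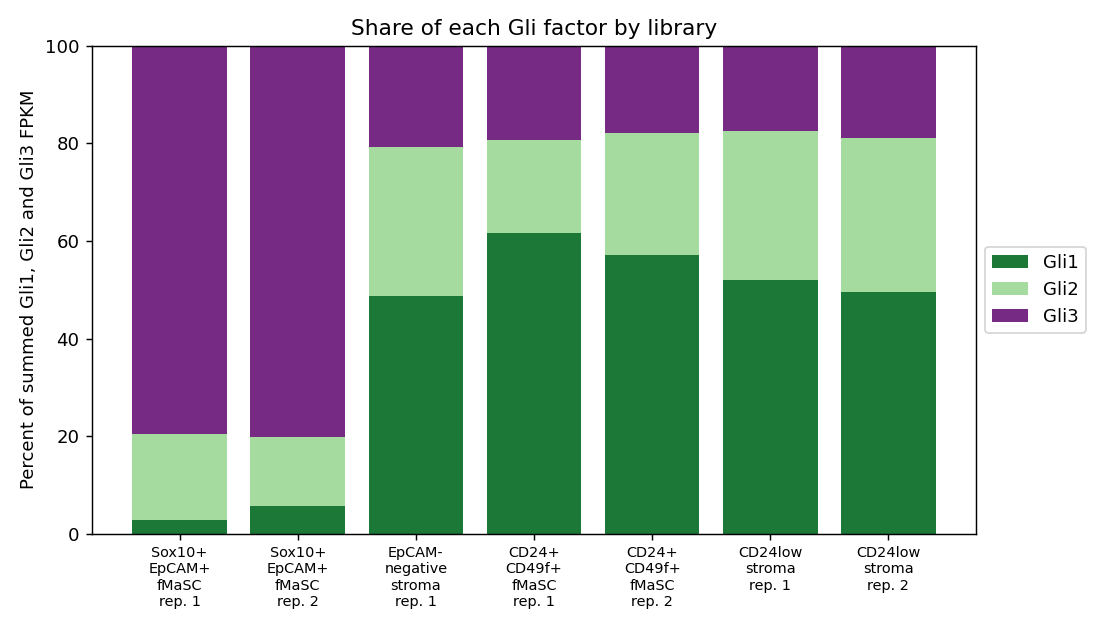
Percent of the summed FPKM of the 3 Gli genes (vertical axis) taken by Gli1, Gli2 and Gli3 in each of the 7 libraries (bars). Gli3 takes 79.6% and 80.3% in the 2 Sox10+EpCAM+ fMaSC bars and between 17.48% and 20.8% in the 5 others, where Gli1 takes the largest share.

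Counted over the members, Sox10+EpCAM+ fMaSC against EpCAM-negative stroma gave 2 of 6 tested genes lower (Gli1 and Gli2) and 0 higher, while 26.1% of all tested genes were called in either direction and 13.6% were lower. A count of 2 in 6 beside these shares shows nothing particular to the members. The median log2 fold was −0.94 over the 6 members and 0.09 over all tested genes. This stroma group is 1 library, and its variance comes from the other groups. Sox10+EpCAM+ fMaSC against CD24+CD49f+ fMaSC gave 1 of 6 lower (Gli1), with 9.99% of all genes called in either direction and 8.04% lower, and medians of −1.12 for the members and −0.01 for all genes. A count of 1 in 6 is likewise close to that background. Without CD24+CD49f+ fMaSC replicate 1, 4 members were called lower (Ptch1, Gli1, Gli2 and Hhip), where 12.4% of all genes were lower. Without CD24+CD49f+ fMaSC replicate 2, 2 were (Gli1 and Hhip), where 6.64% of all genes were lower, and without Sox10+EpCAM+ fMaSC replicate 1, 0 were, where 1.73% were lower. Both comparisons used the same Sox10+EpCAM+ fMaSC libraries.

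CD24+CD49f+ fMaSC against CD24low stroma gave 0 of 6 members by limma, and 0 at an unadjusted p under 0.05, where 10.7% of all genes were called. The median log2 fold was −0.04 over the members and 0.13 over all genes. This count rested on both CD24+CD49f+ fMaSC libraries. Without replicate 1, Ptch1 was called higher (log2 fold 1.00, adjusted p = 0.03995), where 7.86% of all genes were higher, and without replicate 2, Gli2 (−1.19, adjusted p = 0.0321) and Hhip (−0.92, adjusted p = 0.0213) were called lower, where 6.09% of all genes were lower. EpCAM-negative against CD24low stroma gave 0 of 6 by limma, and 0 at an unadjusted p under 0.05, with 0.0277% of all genes called.

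Over both sorts together, in a fit of cell type plus sorting strategy, 0 of 6 members passed limma's test and 0 had an unadjusted p under 0.05, although 25.1% of all genes were called. The log2 folds of fMaSC against stroma were −1.24 for Gli2 (SE 0.54, adjusted p = 0.129), −1.32 for Gli1 (SE 0.79, adjusted p = 0.238) and −0.69 for Hhip (SE 0.34, adjusted p = 0.168). Without CD24+CD49f+ fMaSC replicate 2, 5 members were called lower (adjusted p = 0.00470 to 0.0486), and Smo was not, in a fit where 44.7% of all genes were called and 17.6% of all genes were lower. The difference between the fold in the Sox10 and EpCAM sort and that in the CD24 and CD49f sort was −3.84 for Gli1 (SE 0.72, limma adjusted p = 0.0727) and −2.11 for Gli2 (SE 0.80, adjusted p = 0.307). By that test 0 of 6 members were called, 2 had an unadjusted p under 0.05 (Gli1 and Gli2), and 1.51% of all genes were called. Without CD24+CD49f+ fMaSC replicate 1 the difference was called for Ptch1, Gli1, Gli2 and Hhip (adjusted p = 0.00619 to 0.04965), where 6.83% of all genes were called, and without replicate 2 for Gli1 (−3.18, adjusted p = 0.0224), where 2.78% were.

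**Figure D3:**
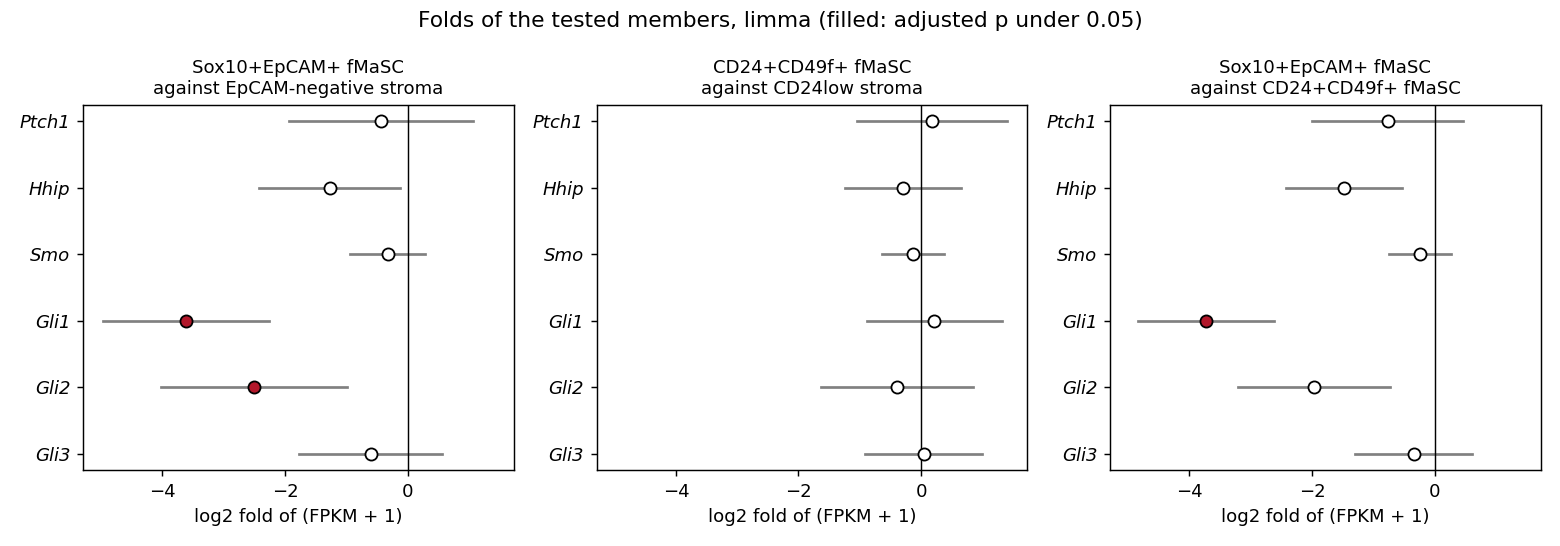
Log2 fold of FPKM + 1 (horizontal axis) of the 6 tested Hedgehog genes with 95% limma intervals (lines) in 3 comparisons, filled where the adjusted p was under 0.05. Gli1 is filled at −3.62 and −3.73 in the outer panels and Gli2 at −2.50 in the left one, and no gene is filled for CD24+CD49f+ fMaSC against CD24low stroma.

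Levels of the members were set beside the fibroblast markers of the same libraries, a ratio chosen after the values were seen. Gli1 stood at 2.80 and 3.93 FPKM for every 1000 FPKM of summed fibroblast markers in Sox10+EpCAM+ fMaSC and at 2.32 in EpCAM-negative stroma, and at 4.72 and 7.79 in CD24+CD49f+ fMaSC against 2.34 and 1.60 in CD24low stroma. In this ratio Sox10+EpCAM+ fMaSC did not lie below the stroma libraries, and both CD24+CD49f+ fMaSC libraries lay highest. The markers summed to only 40.9 and 68.9 FPKM in Sox10+EpCAM+ fMaSC, which raises the ratio of any gene there. The order of libraries by this ratio is therefore not read as a result. For Gli3 the ratio was 77.1 and 56.2 in Sox10+EpCAM+ fMaSC and between 0.610 and 2.43 in the 5 other libraries, and for Smo 405 and 257.5 against 3.29 to 9.29. Ptch1 gave 38.9 and 26.1 in Sox10+EpCAM+ fMaSC and 0.421 to 2.29 elsewhere, Gli2 17.0 and 9.88 against 1.01 to 3.40, and Hhip 1.48 and 0.903 against 0.266 to 1.15. Summed FPKM of 5 dermal papilla markers was 1.57 and 1.54 in Sox10+EpCAM+ fMaSC and 20.8 in EpCAM-negative stroma, and 13.4 and 24.4 in CD24+CD49f+ fMaSC against 18.0 and 14.3 in CD24low stroma, with 0 of the 5 at 0 in any library. Crabp1 made up most of the sum in EpCAM-negative stroma (16.2 FPKM). Single markers went different ways, with Sox2 at 1.44 and 2.38 FPKM in CD24+CD49f+ fMaSC against 0.0870 and 0.0874 FPKM in CD24low stroma. The sum therefore does not stand for 1 cell type. The part of stromal RNA in the fMaSC values was not tested.

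**Figure D4:**
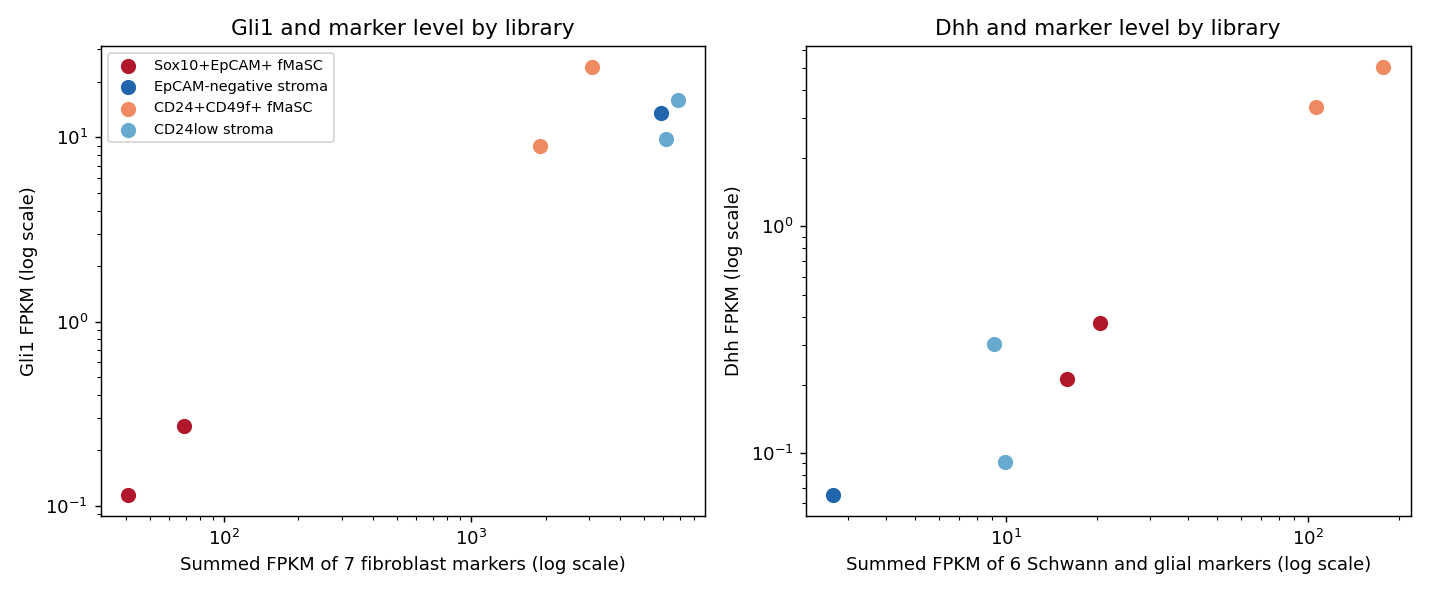
Gli1 FPKM against the summed FPKM of 7 fibroblast markers (left) and Dhh FPKM against that of 6 Schwann and glial markers (right), 1 point a library, all axes logarithmic. The Sox10+EpCAM+ fMaSC points lie lowest in Gli1 and in fibroblast markers (40.9 and 68.9), and the CD24+CD49f+ fMaSC points lie highest in Dhh (5.03 and 3.37) and in Schwann and glial markers (177 and 106).

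The other genes of the pathway were counted by list. Over both sorts, 5 of the 50 genes tested in these lists were called, Dhh among them. Of all tested genes 25.1% were called there, a larger share than in the lists, so the list calls over both sorts show nothing particular to the pathway. Of 6 genes for making and releasing ligands, 5 were tested, and over both sorts 2 were higher in fMaSC and 1 lower, with a median log2 fold of −0.38 (0.12 over all tested genes). Those higher were Dhh, described above without a test, and Scube3, of a family whose members release lipid-modified ligands (1.58, SE 0.22, limma adjusted p = 0.00400). Disp1, which exports the ligand from the producing cell, was lower by a log2 fold of −0.82 (SE 0.19, adjusted p = 0.0220). Scube3 stood at 9.68 and 10.7 FPKM in both Sox10+EpCAM+ fMaSC libraries and 1.77 FPKM in EpCAM-negative stroma, and at 4.84 and 7.28 FPKM in CD24+CD49f+ fMaSC against 2.21 and 1.52 FPKM in CD24low stroma, so that all 4 fMaSC libraries lay above all 3 stroma libraries. The Scube3 call held whichever library was left out. TPM scaling, which sets each library to the same sum, ended the calls of Scube3 and Disp1 and that of Ccnd1 described later (adjusted p = 0.0699 to 0.0872) with their directions unchanged, and keeping genes of low level ended those of Disp1 and Gpc3 (0.0901 and 0.0988). Disp1 also lost its call without either Sox10+EpCAM+ fMaSC library, EpCAM-negative stroma, CD24+CD49f+ fMaSC replicate 1 or CD24low stroma replicate 1 (adjusted p = 0.0601 to 0.119).

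Of 6 receptor and coreceptor genes outside the members, 5 were tested and 1 was called over both sorts. Gpc3, which encodes a glypican that binds Hedgehog ligands and competes with Ptch1, was lower in fMaSC by a log2 fold of −1.36 (SE 0.31, limma adjusted p = 0.0216), and the list's median was −0.82. Its FPKM was 77.9 and 83.3 in Sox10+EpCAM+ fMaSC and 277.7 in EpCAM-negative stroma, and 139.6 and 281.8 in CD24+CD49f+ fMaSC against 392.3 and 456.8 in CD24low stroma. The call ended without either Sox10+EpCAM+ fMaSC library, EpCAM-negative stroma or CD24+CD49f+ fMaSC replicate 1 (adjusted p = 0.0634 to 0.137). The coreceptor genes Gas1, Cdon and Boc were called in none of the 6 comparisons. By way of example, also chosen after the values were seen, Gas1 stood at 20.8 and 23.3 FPKM in both Sox10+EpCAM+ fMaSC libraries and 28.9 FPKM in EpCAM-negative stroma, and Boc at 12.7 and 13.7 FPKM against 13.5 FPKM. Cdon differed from them, with both Sox10+EpCAM+ fMaSC libraries below every other library. Its log2 fold against EpCAM-negative stroma was −1.38 (SE 0.45). Coreceptor levels were therefore not alike across these groups for every gene, although none was called.

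Of 18 genes that act between Smo and the Gli factors, all were tested, and over both sorts limma called 0, with 3 at an unadjusted p under 0.05 and a median log2 fold of −0.08. In the Sox10 and EpCAM sort 3 of the 18 were lower and 0 higher, where 13.6% of all tested genes were lower. A count of 3 in 18 is close to that share and shows nothing particular to the list. The 3, named after their values were seen, were Evc, Iqce and Spop. Evc, of the ciliary complex that relays Smo activity, had a log2 fold of −1.26 (limma adjusted p = 0.0191). Iqce, which anchors that complex, was at −1.31 (adjusted p = 0.0312). Spop, an adaptor for Gli protein degradation, was at −1.33 (adjusted p = 0.0191). Sufu, which holds Gli proteins in the cytoplasm and is likewise named afterwards, stood at 9.92 and 10.1 FPKM in both Sox10+EpCAM+ fMaSC libraries and 6.97 FPKM in EpCAM-negative stroma (log2 fold 0.47, adjusted p = 0.322). Of 15 primary cilium genes 14 were tested. Over both sorts limma called 0 of them, 0 had an unadjusted p under 0.05, and the median was −0.002. The 1 call in the Sox10 and EpCAM sort was Kif3a, a ciliary transport motor (−0.80, limma adjusted p = 0.0376), named after its value was seen. This is 1 of 14, beside 13.6% of all tested genes that were lower there.

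Of 11 genes known to respond to Gli factors in some tissues, 8 were tested, and over both sorts 1 was higher, 0 lower and the median log2 fold 0.005. The 1 called, Ccnd1, encodes cyclin D1, which drives entry into the cell cycle and has many other inputs. Ccnd1 stood at 63.6 and 77.8 FPKM in both Sox10+EpCAM+ fMaSC libraries and 18.9 FPKM in EpCAM-negative stroma, and at 43.9 and 52.8 FPKM in CD24+CD49f+ fMaSC against 21.3 and 16.2 FPKM in CD24low stroma. It was higher by a log2 fold of 1.53 (SE 0.19, limma adjusted p = 0.00265), whichever library was left out. In the Sox10 and EpCAM sort 13.6% of all tested genes were lower. Lower there in this list were 3 others, named after their values were seen. They were the forkhead genes Foxf1 (−1.30) and Foxc2 (−1.10, limma adjusted p = 0.0160) and the secreted signal gene Bmp4 (−1.90, adjusted p = 0.00703). Foxf1 passed the filter only through EpCAM-negative stroma (1.64 FPKM) and CD24low stroma replicate 2 (1.42 FPKM). Its fold is therefore a description, and its call is not read as support. Bmp4 had 0.347 and 0.188 FPKM in both Sox10+EpCAM+ fMaSC libraries and 3.73 FPKM in EpCAM-negative stroma. Over all lists, 13 of 50 tested genes (26.0%), Foxf1 among them, were called in the Sox10 and EpCAM sort, close to the 26.1% of all genes. Of these 13, 3 (Scube3, Ccnd1 and Bmp4) kept their call without Sox10+EpCAM+ fMaSC replicate 1 and likewise without replicate 2. TPM scaling kept 7 of the 13 calls and ended those of Scube3 (adjusted p = 0.169), Ccnd1 (0.245), Evc (0.0574), Disp1 (0.0595), Iqce (0.0675) and Kif3a (0.1035). Keeping genes of low level kept 3 of the 13 (Scube3, Ccnd1 and Disp1) and ended those of Bmp4 (0.0616), Foxf1 (0.0645), Kif3a (0.0658), Foxc2 (0.0832), Evc (0.0877), Spop (0.0905) and Iqce (0.144).

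Across the 7 libraries, which share their group structure, the log2 levels of Gli1 correlated with those of Gli2 at Pearson's r of 0.960, with Hhip at 0.935 and with Gli3 at 0.626, given as a description. For Gli2 and Hhip r was 0.954. The genes nearest to Gli1 in pattern, by Euclidean distance of centred log2 values over the 7 libraries among all tested genes, were Ltbp4, which encodes a matrix protein that binds latent TGF-beta (distance 0.68), the neurotrophin receptor gene Ngfr (0.86) and the microRNA entry mmu-mir-1906-2 (0.89). Ltbp4 stood at 4.99 and 5.12 FPKM in both Sox10+EpCAM+ fMaSC libraries and 67.8 FPKM in EpCAM-negative stroma, and at 39.5 and 82.9 FPKM in CD24+CD49f+ fMaSC against 95.0 and 60.7 FPKM in CD24low stroma. Nearest to Gli2 were Spon1, Prickle2 and Pcdh19 (0.35 to 0.37), to Gli3 Klf7, Dot1l and Ankfy1 (0.15 to 0.21) and to Hhip Tmem132e, B3galt1 and Gbp7 (0.38 to 0.41). Nearest to Ptch1 were Gm9581, Egr3 and Prdm1 (0.36 to 0.40), and nearest to Smo Elac1, Tmem260 and the ciliary motor gene Kif3b (0.08 to 0.10), the only listed pathway gene among them.

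Promoter windows of 300 bases (250 before to 50 after the start site, RefSeq, GRCm38.p6) were matched for Ihh, Ptch1, Smo, Gli2, Gli3 and Hhip, 6 of the 8 members, and not for Shh and Gli1. They held more CpG dinucleotides than most of 32851 such windows, whose median count was 7. Ptch1 had 47 (98.6% of windows had fewer), Gli3 39 (95.6%), Ihh and Hhip 30 each (88.3%), Gli2 28 (85.8%) and Smo 17 (68.6%). The windows of Gli2 and Hhip, the pair with a window whose levels correlated most closely, are printed 5′ to 3′ on the minus strand with each CG in capitals, from chr1:119053570-119053869 and chr8:80057959-80058258.
Gli2: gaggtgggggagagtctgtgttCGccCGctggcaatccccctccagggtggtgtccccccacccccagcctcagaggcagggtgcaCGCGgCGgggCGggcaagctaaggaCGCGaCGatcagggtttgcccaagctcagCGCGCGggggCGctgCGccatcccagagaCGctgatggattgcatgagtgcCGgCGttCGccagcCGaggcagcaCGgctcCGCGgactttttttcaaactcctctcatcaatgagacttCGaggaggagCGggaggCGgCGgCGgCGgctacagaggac
Hhip: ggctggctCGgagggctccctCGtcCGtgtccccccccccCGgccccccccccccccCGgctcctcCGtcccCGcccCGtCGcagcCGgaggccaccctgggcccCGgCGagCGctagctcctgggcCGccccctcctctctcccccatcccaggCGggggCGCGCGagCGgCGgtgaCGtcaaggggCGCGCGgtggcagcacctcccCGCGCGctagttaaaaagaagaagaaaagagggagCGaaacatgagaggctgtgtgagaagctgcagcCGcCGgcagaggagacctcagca
The Gli binding motif GACCACCCA, searched on both strands (TGGGTGGTC on the other), was in 0 of the 6 member windows and in 0.253% of all windows. Its looser form GACCNCCCA, which contains it, was in 0 of the 6 and in 0.977% of all. These letters were thus not in these windows.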

How the data were processed

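RNA of sorted E17.5 cells was made into Illumina TruSeq libraries and read as paired ends of 100 bases, per the labels' protocols. Per the submitters' processing notes, STAR and Cufflinks were used, with GRCm38 (mm10) as the build and no versions given. The authors deposited FPKM values, 1 column a library, with no counts. Depth was estimated from low FPKM values, of which 65.1% to 75.0% lay within 0.15 of a whole fragment, too few to recover counts.

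Symbols were matched without regard to case, and 8 added non-gene sequences were left out. limma 3.58.1 (R 4.3.3) fitted log2(FPKM + 1), which understates changes of low genes, with an empirical Bayes trend on all 7 libraries, keeping genes that reached 1 FPKM in 2 or more. P-values were two-sided and adjusted by Benjamini and Hochberg's method across all 14418 genes of the fit, with calls under 0.05, and the fit was tested on simulated data. Named are all members, list genes called over both sorts (up to 4 a direction) and the 3 nearest patterns of each tested member, and exceptions are stated. Values of 1 listed gene are not reported here. Members and lists were chosen with earlier results of these data known. Alternatives covered pseudocount, filter, scaling, variance trend, repeated symbols and each library left out. Other steps ran in Python 3.11.15 (pandas 2.3.3 and numpy 2.4.6, plots by matplotlib 3.10.9).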

Additional observations from a re-analysis of the deposited data

Results flagged for a closer look

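Sequences added to the reference, which no comparison above uses, gave signal in the Sox10+EpCAM+ fMaSC libraries, those sorted for the Sox10-Venus reporter. The entry spliced_GFP stood at 202.1 and 211.4 FPKM there and at most at 0.660 FPKM in the 5 other libraries. The entry mL1-GFP_reporter was at 21.2 and 21.9 FPKM in the same 2 libraries, against at most 0.0679 FPKM elsewhere. These entries did not enter the tests of the Hedgehog genes.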

How the results depend on the processing

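The direction of the Gli1 and Gli2 folds in Sox10+EpCAM+ fMaSC against EpCAM-negative stroma held in all 14 alternatives run. With a pseudocount of 0.1 FPKM, 1 member was called for the difference between sorts and 3 were for Sox10+EpCAM+ against CD24+CD49f+ fMaSC, and over all genes the difference had 421 calls (115 with a pseudocount of 2). Without the filter on low values, which adds genes to the adjustment, 0 members were called in either comparison of Sox10+EpCAM+ fMaSC, and calls over all genes were 445 for CD24+CD49f+ fMaSC against CD24low stroma, 1601 over both sorts, 987 for the difference, 545 between fMaSC groups and 763 between stroma groups (14 with a filter on the mean). TPM scaling moved the median fold of all genes to −0.63 from 0.09 in Sox10+EpCAM+ fMaSC relative to EpCAM-negative stroma, where Gli1 was at −4.84 and Gli2 at −3.54, both still called. It gave 2353 calls there (615 higher and 1738 lower, against 1803 and 1959 as deposited), 590 in the CD24 and CD49f sort, 1781 over both sorts (831 and 950, against 2252 and 1369), 61 for the difference and 554 between fMaSC groups (16 and 538, against 281 and 1159). It turned uncalled folds of CD24+CD49f+ fMaSC against CD24low stroma to −0.036 for Ptch1, −0.054 for Gli1 and −0.20 for Gli3, and those of EpCAM-negative against CD24low stroma to 0.070 for Ptch1 and 0.24 for Smo. Quantile normalization turned Gli3 in CD24+CD49f+ fMaSC against CD24low stroma to −0.12, gave 104 calls for the difference, and split calls 855 and 772 in the CD24 and CD49f sort (1121 and 424 as deposited), 1663 and 2056 over both sorts, and 526 and 816 between fMaSC groups. Why these settings moved the counts was not tested. With 0.1 FPKM added, Gli3 took 76.9% in Sox10+EpCAM+ fMaSC, and EpCAM-negative stroma had 48.5% Gli1, 30.6% Gli2 and 20.9% Gli3.

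Leaving out each library gave 1 to 3 members and 1674 to 5758 genes in Sox10+EpCAM+ fMaSC relative to EpCAM-negative stroma, 0 to 2 and 426 to 2353 for CD24+CD49f+ fMaSC against CD24low stroma, 0 to 5 and 1563 to 6374 over both sorts, 0 to 4 and 4 to 974 for the difference, 0 to 4 and 269 to 2509 between fMaSC groups, and 0 and 0 to 11 between stroma groups. Uncalled folds that changed sign ranged, for CD24+CD49f+ fMaSC against CD24low stroma, from −0.63 to 1.00 for Ptch1, −0.32 to 0.064 for Smo, −0.44 to 0.88 for Gli1, −1.19 to 0.41 for Gli2, −0.53 to 0.62 for Gli3 and −0.92 to 0.33 for Hhip. Over both sorts they ranged from −0.54 to 0.28 for Ptch1, −2.03 to 0.22 for Gli1 and −0.57 to 0.045 for Gli3, and for the difference from −1.44 to 0.19 for Ptch1. Between fMaSC groups they ranged from −1.58 to 0.049 for Ptch1 and −0.92 to 0.24 for Gli3, and between stroma groups from −0.31 to 0.023 for Ptch1, −0.17 to 0.10 for Smo, −0.22 to 0.43 for Gli1 and −0.12 to 0.41 for Gli2. A group left with 1 library is assumed to vary like the others, and EpCAM-negative stroma, 1 library, could not be left out of its own comparisons. No paired analysis was possible because the labels pair no libraries.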
